A study of Bos taurus with 8 samples.

Results

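The enzymes that write and erase methyl groups on histone lysines were followed in bovine embryonic stem cells (bESCs) as the cells moved from feeders to a feeder-free matrix at low oxygen. The set holds every row of the deposited gene counts whose symbol starts with KDM, KMT or SETD, followed by a number and at most 1 letter. This gave 34 of the 32640 genes listed, namely 17 demethylases (KDM) and 17 methyltransferases (KMT and SETD). Counts were high enough for testing in 33 of them, and the exception was KDM4D. KDM4E and KDM5D were not analysed here.

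Methylated lysines on histone tails mark the state of a gene. Trimethylated H3K4 lies at active promoters, monomethylated H3K4 at enhancers and methylated H3K36 over transcribed gene bodies, whereas methylated H3K9 and H3K27 accompany silent chromatin. KMT2 and SETD1 enzymes place the H3K4 marks inside COMPASS complexes, and KDM enzymes remove methyl groups either with a flavin cofactor (KDM1) or with a JmjC domain that holds iron and consumes oxygen and 2-oxoglutarate. In pluripotent cells these enzymes keep developmental genes poised, and several JmjC demethylases are themselves known targets of the hypoxia-inducible factor HIF.

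RNA was sequenced from 4 independent bESC lines of XX genotype, called A, C, D and E, which were derived from early or full blastocysts made in vitro. All libraries came from cells kept at 5% O2 in NBFR medium, which holds FGF2 and the WNT inhibitor IWR-1. The MEF group (n = 4) grew on irradiated mouse embryonic fibroblasts after 5 passages of adaptation to low oxygen and was collected at passages 15 to 17. The feeder-free group (n = 4) was made from the same lines on vitronectin (VTN), with Activin A in the medium per the methods, and was collected at passages 20 to 22. The sample titles, however, give both groups the same medium abbreviation, NBFRA, so it is unclear whether Activin A differed between the groups. Matrix and passage number changed together and cannot be told apart, and in bulk RNA fewer cells of a type cannot be told apart from less RNA per cell. The methods mention sequencing batches, but the batch of each library is not given in the sources used here. Whether batch went with the matrix is therefore unknown.

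Total counts per library ran from 44268717 to 54296425 on MEF and from 49671478 to 102351560 feeder-free. The highest total belonged to the feeder-free library of line D. The group means did not differ beyond the spread between libraries (two-sided exact permutation test, P = 0.171, where the smallest possible value is 0.0286). Levels below are CPM, read counts relative to library size after scaling by the trimmed mean of M-values (TMM), and are compared between libraries for 1 gene, not between genes, because no transcript lengths were used. A gene was called upregulated or downregulated at an adjusted P-value under 0.05 (edgeR quasi-likelihood test, Benjamini-Hochberg over 15744 tested genes) with a fold change of at least 1.5. Results of 2 fits are given. The first has the condition alone, since the methods of the study name edgeR and no term for line, and the second adds the line as a term, so that each line is compared with itself (line-adjusted).

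Both groups carried the transcripts of pluripotent cells. POU5F1, the core pluripotency factor, had the highest CPM of 10 pluripotent markers, with no correction for length, at 2048 ± 245 CPM on MEF and 1850 ± 84.6 CPM feeder-free (SD, n = 4). SOX2 stood at 432 ± 33.5 CPM and 339 ± 8.62 CPM, and NANOG at 262 ± 22.2 CPM and 213 ± 19.1 CPM. None of these 3 genes was called in either fit, although SOX2 had a line-adjusted P-value of 0.0436 at a log2 fold change of -0.35. Of the 10 markers, 7 lay below 0, the median log2 fold change was -0.30, and 4 were lower by the line-adjusted P-value alone. Among genes named after their values were seen, OTX2 was downregulated in the line-adjusted fit (-0.66, edgeR adjusted P-value 0.00495), and SALL4 lay just under the fold change threshold (-0.58, 0.0426 unpaired and 0.00614 line-adjusted) and passed it with the span correction described below (-0.64, 0.00452). Their median had the same sign as that of the enzymes described below, and their part in that result was not tested. Markers of the trophoblast summed to at most 6.23 CPM in any library, led by GATA3, with CDX2, PAG2 and IFNT2 at 0 in all 8. Within that list, PTGS2 was upregulated in both fits (2.43 and 2.42, edgeR adjusted P-values 0.0373 and 0.0107) and GATA2 downregulated in the line-adjusted fit (-1.45, 0.0447), both named after their values were seen. Markers of the hypoblast, led by FOXA2, summed to 3.63 to 14.4 CPM. The primitive streak markers, led by EOMES, summed to 0.815 to 6.90 CPM on MEF and 6.44 to 10.2 CPM feeder-free, with at most 0.231 CPM of TBXT, and EOMES was upregulated in the line-adjusted fit (1.61, edgeR adjusted P-value 0.0307). The neural sum of 25.1 to 333 CPM was almost entirely NES, an intermediate filament gene also found outside the neural lineage, while PAX6 did not exceed 0.330 CPM.

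Fibroblast transcripts were also present in both groups. The 26 fibroblast markers summed to 1419, 1389, 1427 and 1222 CPM on MEF (lines A, C, D, E) and to 924, 2118, 2872 and 1116 CPM feeder-free, so lines C and D were higher without feeders and lines A and E lower. Of 23 tested markers, 0 were called in the unpaired fit, and 3 were upregulated and 2 downregulated in the line-adjusted fit. SPARC, a matrix glycoprotein, had the highest CPM of these, again with no correction for length, at a mean of 497 CPM on MEF and 623 CPM feeder-free. Of these 23, 12 lay below 0 and 11 above, with a median log2 fold change of -0.10. Among the defining markers, COL1A1 averaged 353 CPM on MEF and 507 CPM feeder-free, where lines C and D were higher without feeders but A and E were not, LUM 19.0 and 42.3 CPM, DCN 7.32 and 6.52 CPM, COL3A1 0.769 and 4.69 CPM, and POSTN 0.183 and 0.882 CPM. The POSTN means rested mostly on line D, at 0.661 CPM on MEF and 2.62 CPM feeder-free, and line A was at 0 in both groups. COL3A1 was higher feeder-free in every line, at 0.816, 0.508, 1.57 and 0.181 CPM on MEF and 1.44, 4.99, 10.5 and 1.85 CPM feeder-free, and COL1A2 was lower in every line, at 0.912, 4.59, 4.65 and 0.680 CPM on MEF and 0, 0.414, 0.176 and 0.0385 CPM feeder-free. The line-adjusted log2 fold changes of the 5 called markers were 2.53 for COL3A1, 2.77 for POSTN and 2.95 for ACTA2 (edgeR adjusted P-values 0.00654, 0.0317 and 0.0228), and -4.35 for COL1A2 and -4.15 for PRRX1 (0.00166 and 0.00759). ACTA2, a smooth muscle actin also made by activated fibroblasts, averaged 6.11 CPM on MEF and 99.8 CPM feeder-free, with 297 CPM in feeder-free D. ACTA2, POSTN and PRRX1 were named after their values were seen. The part of these transcripts in the results on histone enzymes was not tested.

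Demethylases made up all of the downregulated members in feeder-free bESCs. KDM6B, which removes methyl groups from H3K27, was the only member called in the unpaired fit. With the line as a term, KDM6B, KDM4A, KDM5B, KDM4C, KDM4B and KDM1B were downregulated and no member was upregulated. Thus 1 of 33 members was downregulated in the unpaired fit, against 1.00% of all tested genes, and 6 of 33 in the line-adjusted fit, against 4.53%. No member was upregulated in either, against 0.724% and 5.52% of all genes. By the adjusted P-value alone, without the fold change threshold, the line-adjusted fit gave 12 members lower and 1 higher, whereas 8.12% of all tested genes were lower and 7.67% higher.

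The direction was shared by members that passed no threshold. The log2 fold change (feeder-free against MEF, unpaired) lay below 0 in 27 of 33 members, with a median of -0.37 and a range from -1.23 to 0.76, while the median of all tested genes was 0.0060. All 4 feeder-free libraries lay below all 4 MEF libraries in 10 members, against 8.36% of all tested genes, and above them in 2 members, SETD6 and SETD9, against 6.21%. Feeder-free cells had the lower level in every line for 16 members, against 20.7% of genes, and the higher level in every line for 3, against 20.2%. Within this set chosen by symbol, the KDM genes differed in these counts from the KMT and SETD genes. Of the 16 tested KDM genes, 15 lay below 0 with a median of -0.53, and 6 were downregulated in the line-adjusted fit. Of the 17 KMT and SETD genes, 12 lay below 0 with a median of -0.15, and none was called in either fit. By unadjusted P-values under 0.05 in the unpaired fit, 11 of the 16 KDM genes were lower and 0 higher, and 5 of the 17 KMT and SETD genes were lower and 3 higher, against 11.4% and 10.2% of all tested genes. The difference between the KDM genes and the KMT and SETD genes was not tested.

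**Figure D1:**
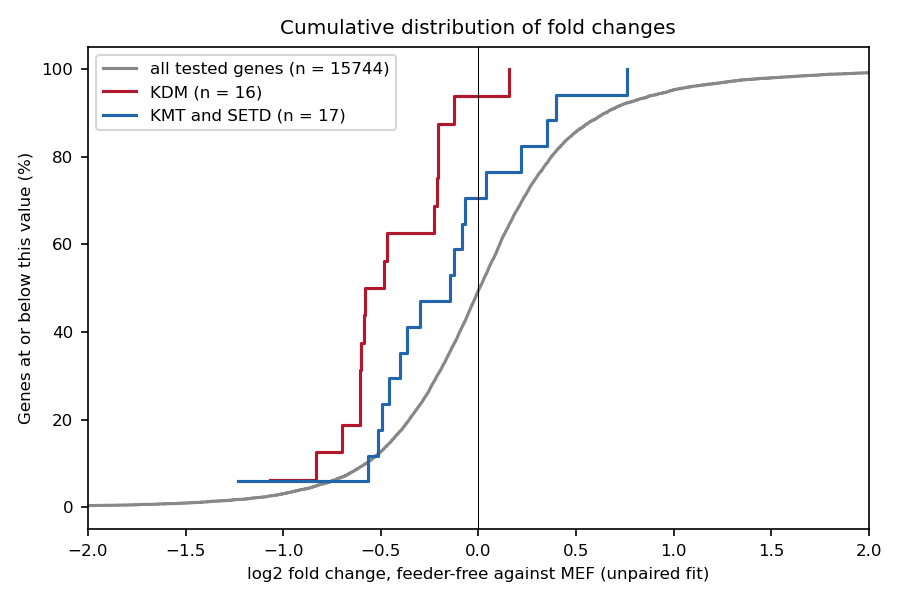
Cumulative share of genes (vertical axis, percent) at or below each log2 fold change of feeder-free against MEF (horizontal axis, unpaired fit) for the 16 tested KDM genes, the 17 KMT and SETD genes and all 15744 tested genes. The KDM curve has its median at -0.53, left of the medians of the other curves, and the curve of all genes crosses its middle close to 0.

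**Figure D2:**
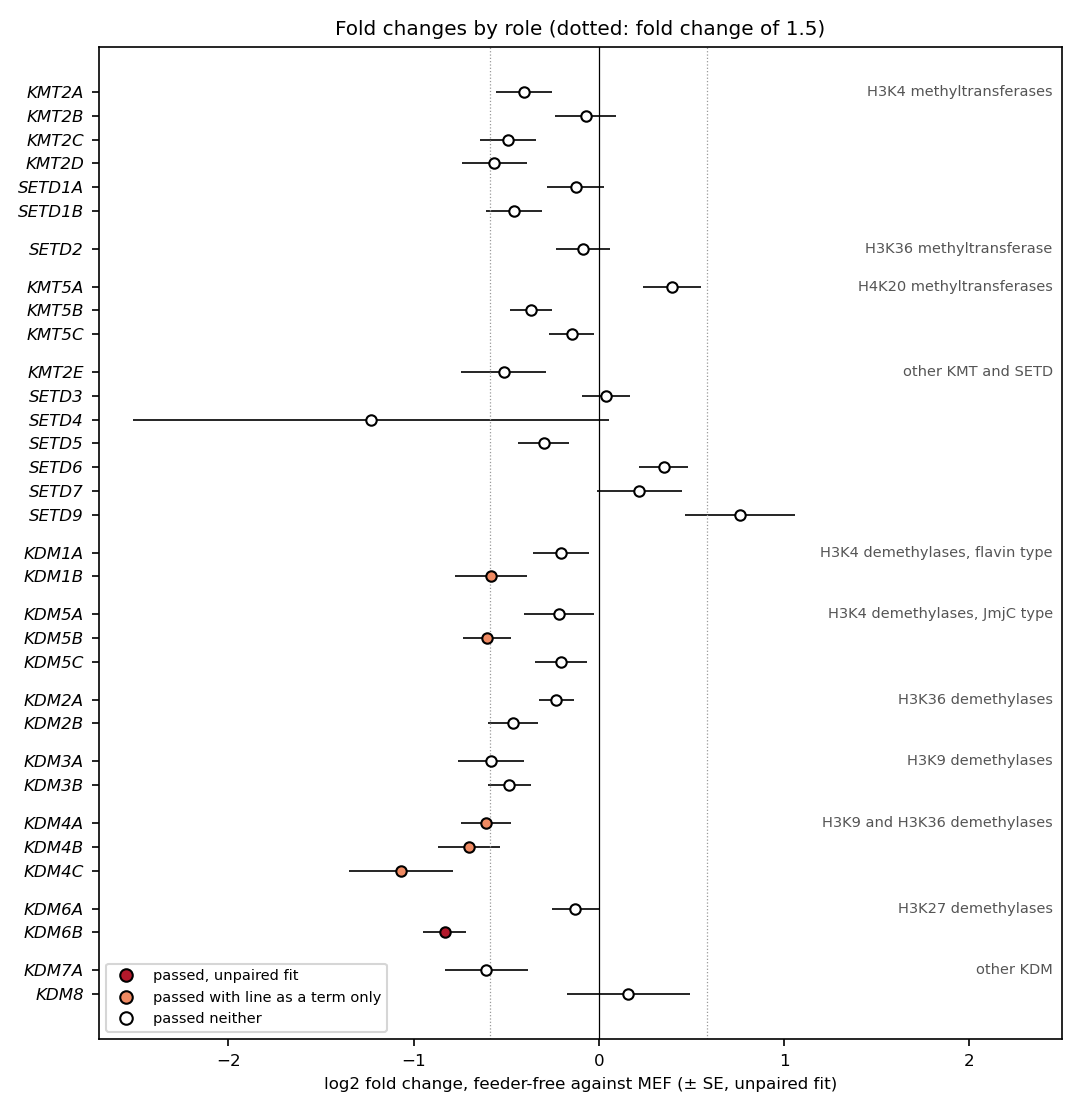
Log2 fold change of every tested member (horizontal axis, feeder-free against MEF, unpaired fit, bars show the SE, n = 4 per group), grouped by the mark the enzyme acts on. Filled points passed the threshold in the unpaired fit (KDM6B) or only with the line as a term (KDM4A, KDM4B, KDM4C, KDM5B, KDM1B), and SETD4 has the widest bar.

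KDM6B was downregulated and the other H3K27 demethylase, KDM6A, was not called. KDM6B (chr19:27523921-27545276, ARS-UCD2.0), an inducible JmjC enzyme that acts at developmental genes, measured 252, 214, 223 and 263 CPM on MEF in lines A, C, D and E, and 136, 144, 121 and 133 CPM feeder-free. Every feeder-free library lay below every MEF library, and the lines kept close together within each group. The means were 238 ± 23.4 CPM and 134 ± 9.35 CPM (SD, n = 4). This gave a log2 fold change of -0.83 (SE 0.12) with an edgeR adjusted P-value of 0.0331, and of 0.00220 with the line as a term. Without any 1 of the 4 MEF libraries, or without feeder-free C, D or E, the unpaired adjusted P-value of KDM6B was 0.0675 to 0.116 with a log2 fold change of -0.88 to -0.78. KDM6A, the X-linked enzyme for the same mark, had a log2 fold change of -0.13 (adjusted P-value 0.625 by edgeR). Its level was 60.5, 62.0, 72.9 and 61.5 CPM on MEF and 70.1, 53.9, 59.7 and 51.6 CPM feeder-free, higher without feeders in line A and lower in the others. Together the pair summed to 276 to 325 CPM on MEF and 181 to 207 CPM feeder-free.

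The KDM4 enzymes, which act on trimethylated H3K9 and H3K36, were downregulated in the line-adjusted fit in all 3 tested members. KDM4A (chr3:102342572-102382986) measured 186, 171, 216 and 163 CPM on MEF and 129, 110, 136 and 107 CPM feeder-free. No feeder-free library reached the lowest MEF library, and the log2 ratio of KDM4A was nearly the same in each line, from -0.66 to -0.53. Its log2 fold change was -0.61 (SE 0.13), with an edgeR adjusted P-value of 0.0510 unpaired and 0.00528 line-adjusted. KDM4B (chr7:19095470-19216553), a known hypoxia-inducible gene, measured 126, 125, 142 and 89.0 CPM on MEF and 74.4, 86.8, 60.0 and 76.0 CPM feeder-free. The groups did not overlap, but line E changed by only -0.23 on the log2 scale and line D by -1.25. The log2 fold change of KDM4B was -0.70 (SE 0.17), with an adjusted P-value of 0.0606 unpaired and 0.0188 line-adjusted.

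KDM4C carried the lowest log2 fold change among the demethylases. This gene (chr8:37732215-38141914) spans 410 kb, more than any other member, and its transcript measured 30.2, 20.0, 27.1 and 34.1 CPM on MEF and 20.2, 11.5, 8.14 and 13.4 CPM feeder-free. The groups met at MEF line C and feeder-free line A, yet each line was lower without feeders, by -0.58, -0.80, -1.73 and -1.35 on the log2 scale in lines A, C, D and E. The edgeR log2 fold change was -1.07 (SE 0.28) with an adjusted P-value of 0.0722 unpaired, and -1.12 (SE 0.19) with 0.00689 line-adjusted. With feeder-free A left out, its highest feeder-free library, KDM4C passed the unpaired test, at -1.34 with an adjusted P-value of 0.0361. With any other single library left out it did not pass (0.1055 to 0.1729). KDM4D counts were 8, 0, 0 and 2 on MEF and 10, 2, 2 and 8 feeder-free, so this testis-type family member was at the edge of detection. Over the 4 KDM4 genes, the sum was 286 to 385 CPM on MEF and 197 to 224 CPM feeder-free.

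**Figure D3:**
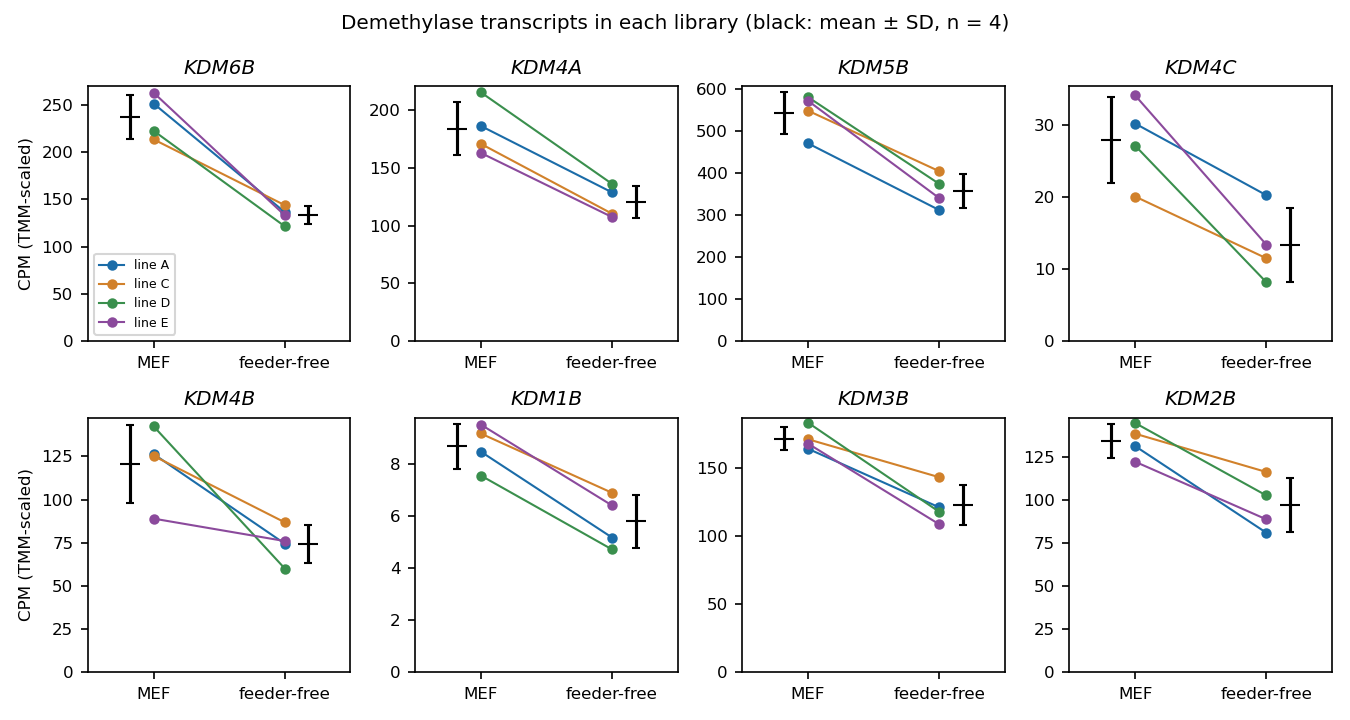
Levels (vertical axes, TMM-scaled CPM, each starting at 0) of 8 demethylase transcripts in MEF and feeder-free libraries, with a line joining both libraries of 1 bESC line and black bars for the mean ± SD (n = 4). Every joined pair is lower in feeder-free cells, and the groups overlap only for KDM4C.

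Among the H3K4 demethylases, KDM5B and KDM1B were downregulated in the line-adjusted fit. KDM5B (chr16:79949956-80023619), which removes H3K4 trimethylation and is abundant in embryonic stem cells, measured 471, 548, 581 and 572 CPM on MEF and 312, 404, 374 and 340 CPM feeder-free. Line A was the lowest in both groups, and the groups stood apart. The log2 fold change was -0.60 (SE 0.13), with an edgeR adjusted P-value of 0.0509 unpaired and 0.00616 line-adjusted. Its relatives KDM5A and KDM5C, the latter X-linked, had log2 fold changes of -0.21 and -0.20 (adjusted P-values 0.561 and 0.442).

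The flavin-dependent enzymes are KDM1A and KDM1B. KDM1B (chr23:39388019-39431688), known for its role in oocytes, measured 8.47, 9.17, 7.56 and 9.51 CPM on MEF and 5.18, 6.89, 4.72 and 6.41 CPM feeder-free. The highest feeder-free library remained below the lowest MEF library. Its log2 fold change was -0.58 (SE 0.19), with an edgeR adjusted P-value of 0.122 unpaired. In the line-adjusted fit the value was -0.59 (SE 0.17) with 0.0428, and this call was lost when any of the 4 lines was left out (adjusted P-values 0.0802 to 0.179). KDM1A (LSD1), a subunit of the CoREST repressor complex, averaged 384 CPM on MEF and 333 CPM feeder-free, with a log2 fold change of -0.20 (adjusted P-value 0.487). Both libraries of line C had the highest KDM1A in their groups, at 436 and 400 CPM.

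KDM3A, KDM3B, KDM2A and KDM2B, which act on H3K9 (KDM3) or H3K36 (KDM2), were lower in every line without reaching the fold change of 1.5. KDM3B (chr7:49749544-49807181), an H3K9 demethylase, measured 164, 171, 183 and 168 CPM on MEF and 121, 143, 118 and 109 CPM feeder-free. KDM3A (JMJD1A), an H3K9 demethylase with a known role in stem cell self-renewal and a known HIF target, measured 166, 139, 148 and 213 CPM on MEF and 129, 124, 84.5 and 107 CPM feeder-free. In both genes all feeder-free libraries lay below all MEF libraries, and line C changed least. Their log2 fold changes were -0.48 (SE 0.12) and -0.58 (SE 0.18), with edgeR adjusted P-values of 0.0606 and 0.104 unpaired and of 0.0180 and 0.0263 line-adjusted. In the line-adjusted fit KDM3A missed the call by its size, lying just under the fold change of 1.5, and in the unpaired fit its adjusted P-value missed the threshold as well. It passed the line-adjusted test without line A (-0.66, adjusted P-value 0.0345) or line C (-0.71, 0.0388), the lines where it changed least. Without line D (-0.51, 0.125) or line E (-0.44, 0.0754) its line-adjusted P-value missed the threshold as well.

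KDM2B (chr17:53650993-53769702), which binds CpG islands and recruits a variant Polycomb complex, measured 131, 138, 145 and 122 CPM on MEF and 80.9, 116, 103 and 88.7 CPM feeder-free. Its groups were apart, with the largest step in line A. The log2 fold change was -0.47 (SE 0.13), with an edgeR adjusted P-value of 0.0909 unpaired and 0.0208 line-adjusted. KDM2A, the paralog, was also lower in all feeder-free libraries (log2 fold change -0.23, adjusted P-value 0.210). KDM7A, which acts on H3K9 and H3K27, had a log2 fold change of -0.61 (adjusted P-value 0.157 unpaired, 0.0714 line-adjusted) that came from lines D and E, at -1.22 and -1.13, while lines A and C gave -0.16 and -0.00. KDM8, a JmjC protein, was the only tested demethylase gene above 0, at 0.16 (adjusted P-value 0.837).

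The 6 H3K4 methyltransferases all lay below 0, with a median log2 fold change of -0.43, and none was called. KMT2D, the main enhancer enzyme of the COMPASS family, measured 141, 235, 231 and 212 CPM on MEF and 144, 139, 155 and 117 CPM feeder-free. The change was seen in lines C, D and E (-0.76, -0.58 and -0.86), whereas line A, already low on MEF, gave 0.03. Its unpaired log2 fold change was -0.56 (SE 0.18, edgeR adjusted P-value 0.108), and the line-adjusted P-value of 0.0350 came with a fold change below 1.5. KMT2C, its partner in the same role, stood at -0.49 (adjusted P-value 0.103) and KMT2A at -0.40 (0.156), each again slightly above 0 in line A, at 0.07 and 0.09. SETD1B, a promoter enzyme, measured 33.4, 48.3, 51.5 and 48.2 CPM on MEF and 30.4, 32.3, 36.9 and 32.5 CPM feeder-free (log2 fold change -0.46, adjusted P-value 0.122 unpaired and 0.0374 line-adjusted). The paralogs SETD1A and KMT2B gave -0.13 and -0.07 (adjusted P-values 0.692 and 0.858).

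Summed over these 6 genes, MEF libraries held 501, 687, 696 and 619 CPM and feeder-free libraries 507, 489, 514 and 426 CPM. Line A on MEF was thus within the feeder-free range, and the other MEF libraries were above it. When both libraries of line A were left out of the line-adjusted fit, KMT2A, KMT2C and KMT2D passed the threshold, at -0.59, -0.67 and -0.73 (edgeR adjusted P-values 0.0224, 0.0159 and 0.00647), and so did KMT2E at -0.67 (0.0462), KDM3A at -0.66 (0.0345) and SETD4 at -2.06 (0.0341), while KDM1B no longer passed. This omission raised the count of downregulated members to 11, from 6 with all lines. The share of all tested genes called lower was 4.65% without line A and 4.53% with all lines. For KMT2A, KMT2C and KMT2D, line A was the only line above 0, so its omission was bound to lower their fold changes. Without line C, D or E none of these genes passed (line-adjusted edgeR adjusted P-values 0.116 to 0.271).

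None of the 3 H4K20 enzymes was called in either fit. KMT5A (SET8), which monomethylates H4K20 and is tied to the cell cycle, measured 27.5, 35.2, 37.8 and 35.4 CPM on MEF and 35.0, 45.5, 53.4 and 45.0 CPM feeder-free. The groups overlapped, yet every line was higher without feeders, by 0.34 to 0.50 on the log2 scale. Its log2 fold change was 0.40 (SE 0.16), with an edgeR adjusted P-value of 0.183 unpaired and 0.0395 line-adjusted, below the fold change threshold, and it was the 1 member higher by the adjusted P-value alone. KMT5B, which adds further methyl groups to H4K20, lay at -0.37 (adjusted P-value 0.111 unpaired, 0.0570 line-adjusted) with all feeder-free libraries below all MEF libraries. KMT5C, with the same activity, gave -0.15 (adjusted P-value 0.539).

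SETD2, which trimethylates H3K36, differed by less than the spread between libraries (log2 fold change -0.08, SE 0.15, adjusted P-value 0.800). The remaining SETD genes and KMT2E hold members with no settled histone activity. SETD3, an actin histidine methyltransferase, gave 0.04 (adjusted P-value 0.908), SETD5 -0.30 (0.251) and SETD7, which methylates H3K4 and other proteins, 0.22 (0.641). KMT2E, which binds H3K4 methylation through its PHD finger, gave -0.51 (0.232 unpaired, 0.0414 line-adjusted), with -1.05 and -0.78 in lines D and E and -0.26 and -0.15 in lines A and C. SETD6, known to methylate the NF-kB subunit RELA, measured 11.7, 13.4, 11.9 and 11.7 CPM on MEF and 14.9, 15.3, 15.2 and 16.6 CPM feeder-free, and SETD9 1.18, 1.20, 1.34 and 2.20 CPM against 2.75, 2.20, 2.49 and 2.58 CPM. All feeder-free libraries of both genes lay above all MEF libraries, with log2 fold changes of 0.35 and 0.76 and edgeR adjusted P-values of 0.162 and 0.176.

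**Figure D4:**
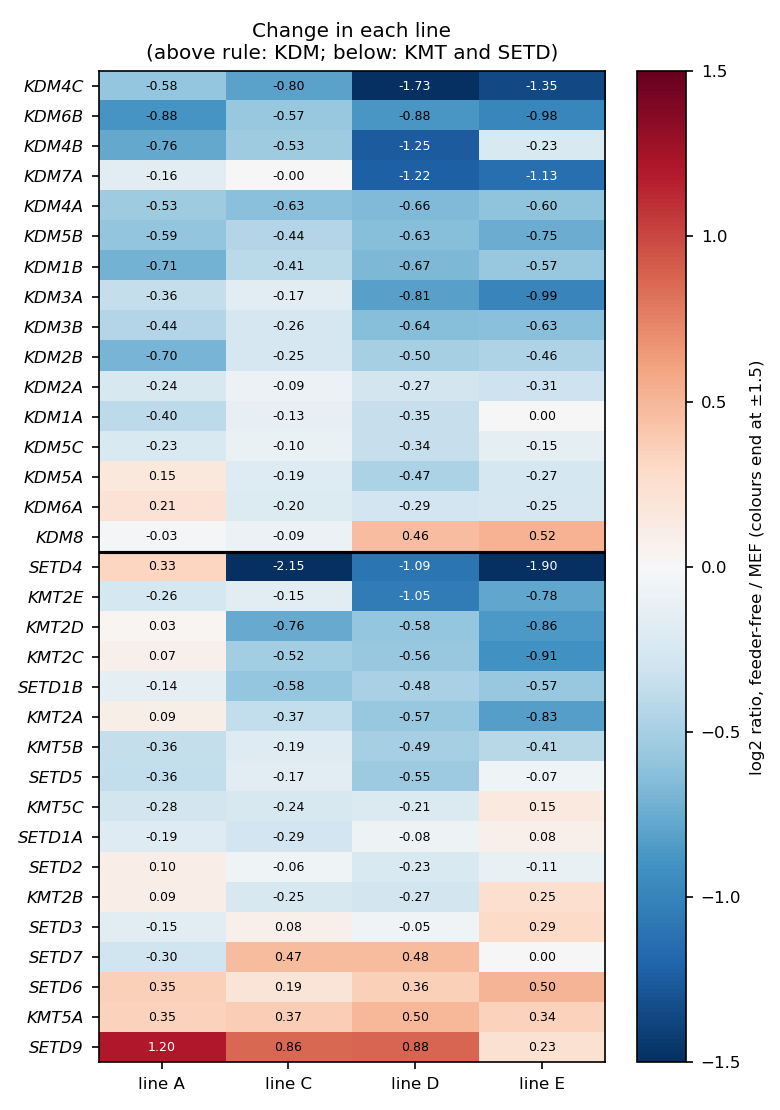
Log2 ratio of feeder-free to MEF in lines A, C, D and E (columns) for each tested member (rows, KDM above the black rule and KMT and SETD below it), with the value printed in each cell and blue for lower levels in feeder-free cells. Blue fills most of the KDM rows, and the KMT2A, KMT2C and KMT2D rows turn pale in line A.

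The size of the shift varied between lines. The median log2 ratio of the 33 tested members was -0.23 in line A, -0.20 in line C, -0.49 in line D and -0.31 in line E. For the KDM genes the medians were -0.42, -0.23, -0.64 and -0.51, and for the KMT and SETD genes 0.03, -0.19, -0.27 and -0.07. Line D therefore had the lowest median in each of these sets, and its feeder-free library was also the most deeply sequenced. In the line-adjusted fit without line D, 4 members were downregulated, against 2.31% of all tested genes. With all lines these values were 6 members and 4.53% of genes, so fewer genes of any kind were called. KDM4B was not among the 4 (log2 fold change -0.51, edgeR adjusted P-value 0.0943). KDM4B was also lost without line C (adjusted P-value 0.0572), and KDM5B fell below the fold change threshold without line E, at -0.54. KDM4A, KDM4C and KDM6B were called whichever line was left out.

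Levels could also differ between the lines themselves, whatever the matrix. Of all tested genes, 11.8% differed between lines at an adjusted P-value under 0.05 (edgeR test of the line terms, with the condition fitted), and 1 of 33 members did. This was SETD4 (adjusted P-value 0.00827), whose counts were 41, 16, 6 and 191 on MEF and 62, 2, 4 and 59 feeder-free in lines A, C, D and E. Lines A and E held nearly all SETD4 transcripts in both groups. Its fold change between matrices was uncertain, at -1.23 with an SE of 1.28 (adjusted P-value 0.637). The next smallest line P-values belonged to KDM8 and SETD7 (adjusted 0.0527 and 0.122). KDM8 was highest in line A, at 11.2 CPM on MEF and 10.9 CPM feeder-free, and lowest in line D, at 3.96 and 5.46 CPM. SETD7 was highest in line C in both groups, at 44.2 and 61.2 CPM.

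Lysine methyltransferases with other names were described next. Of 23 listed genes, 21 were tested, 18 of these lay below 0, and the median log2 fold change was -0.30. SETDB1 and ASH1L were downregulated in the unpaired fit, and 5 genes in the line-adjusted fit, against 1.00% and 4.53% of all tested genes. SETDB1, which trimethylates H3K9 at retroelements, measured 74.0, 73.4, 71.8 and 67.0 CPM on MEF and 47.2, 52.8, 45.1 and 44.9 CPM feeder-free, with a log2 fold change of -0.59 (SE 0.10, edgeR adjusted P-value 0.0331). ASH1L, an H3K36 methyltransferase, averaged 37.2 ± 4.50 CPM on MEF and 20.0 ± 3.00 CPM feeder-free (SD, n = 4), with -0.89 (SE 0.15, 0.0331). Neither gene overlapped between groups. The other calls of the line-adjusted fit were SETDB2 (-0.79, adjusted P-value 0.0307), SMYD4 (-0.64, 0.0136) and MECOM (-1.80, 0.0156). Of 6 tested lysine demethylases with other names, 3 lay below 0, none was called in either fit, and their median was -0.02. With other names, then, the methyltransferases had the lower median, the reverse of the order within the set. This difference was not tested either.

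Partner subunits of these enzymes lay close to 0 on average. Among 13 COMPASS subunits the median log2 fold change was -0.01, and only WDR5, the scaffold that holds the catalytic subunit, was called, higher in the line-adjusted fit (0.66, edgeR adjusted P-value 0.0244) and in all 4 lines. WDR5 averaged 41.8 ± 11.6 CPM on MEF and 65.2 ± 12.8 CPM feeder-free (SD, n = 4), with overlapping groups, and its unpaired adjusted P-value was 0.134. By the line-adjusted P-value alone, HCFC1, a chromatin cofactor named after its values were seen, was lower (-0.35, 0.0374) in all 4 lines. Among 7 subunits of the LSD1/CoREST complex the median was 0.08 and none was called in either fit. By the adjusted P-value of the line-adjusted fit alone, 1 was lower (PHF21A) and 1 higher (HDAC1), which were named after their values were seen.

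HIF target genes were also read at the same 5% O2. Of 18 tested targets, none of them a member of the set, 15 lay below 0 with a median log2 fold change of -0.73. In the unpaired fit 2 were downregulated, against 1.00% of all tested genes, and in the line-adjusted fit 8, against 4.53%. The 3 targets above 0 were CA9 (0.66), NDRG1 (0.43) and ADM (0.10), and none of them was called. Between lines, 5 of the 18 differed, against 11.8% of all tested genes. EGLN1, the oxygen-sensing prolyl hydroxylase, averaged 239 ± 78.1 CPM on MEF and 105 ± 28.5 CPM feeder-free. Its log2 fold change was -1.19 (edgeR adjusted P-value 0.0567 unpaired, 0.00266 line-adjusted). The glucose transporter SLC2A1 stood at -0.92 (0.0517 and 0.00470), the glycolytic regulator PFKFB3 at -0.99 (0.0331 and 0.00196), the adenylate kinase AK4 at -1.17 (0.0391 and 0.00195) and the MYC antagonist MXI1 at -1.13 in the line-adjusted fit (0.00590). The other 3 line-adjusted calls, beyond the 5 chosen by rule, were BNIP3 (-1.11, 0.0292), PDK1 (-0.98, 0.0212) and PGK1 (-0.64, 0.0118). The targets summed to 4345, 3009, 3291 and 4970 CPM on MEF and 2860, 2260, 1653 and 2243 CPM feeder-free. Their line medians were -0.54, -0.40, -0.83 and -0.997 in lines A, C, D and E, beside -0.42, -0.23, -0.64 and -0.51 for the KDM genes. The part of HIF activity in the demethylase levels was not tested.

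Longer genes tended to lie lower in feeder-free libraries. The median annotated span was 56.6 kb for the tested members and 22.9 kb for all tested genes. When 15679 genes with a known span were split into 5 equal bins, the median log2 fold change was 0.12 in the shortest bin, 0.07, 0.01 and -0.05 in the next, and -0.12 in the longest. The median of the members was below that of all genes in the 3 longer bins, at -0.17 (8 members), -0.44 (14 members) and -0.48 (8 members), and above it in the 2 shorter bins, at 0.35 (1 member) and 0.31 (2 members). Fitting the line together with a correction for span left 6 members downregulated, against 4.97% of all genes, and these were the members named before. KDM6B, whose span of 21.4 kb is shorter than the median of all genes, gave -0.87 (adjusted P-value 0.00205) in this fit, and KDM4C, the longest, gave -0.99 (0.00915). KMT5A no longer passed by its adjusted P-value (0.34, 0.0650). The median of the KMT and SETD genes was -0.26 with the span correction and -0.14 in the line-adjusted fit without it. For the KDM genes these medians were -0.53 and -0.54, so the 2 sets lay closer together with the correction.

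**Figure D5:**
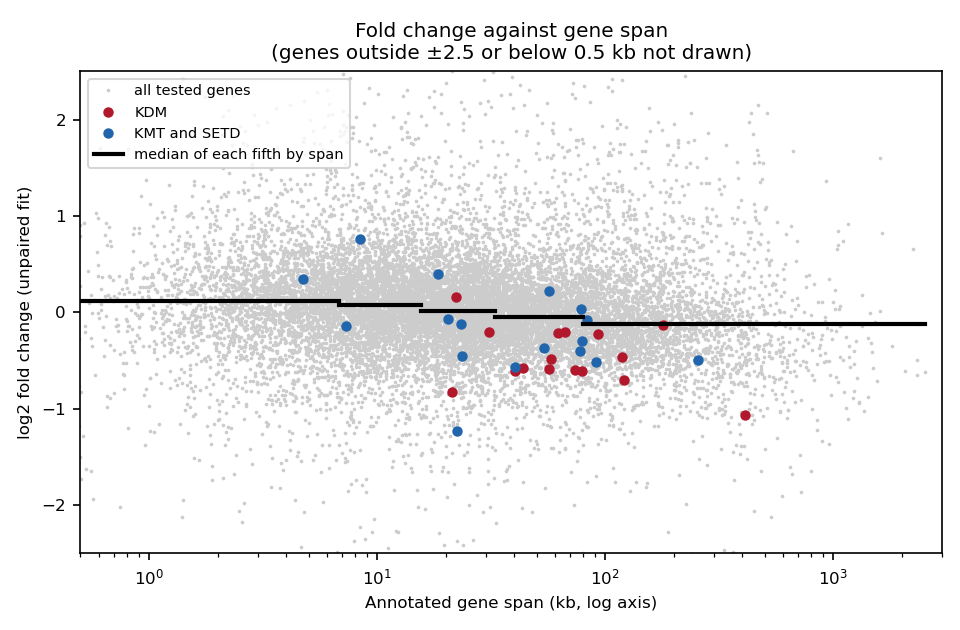
Log2 fold change (vertical axis, feeder-free against MEF, unpaired fit) against annotated gene span (horizontal log axis, kb) for all tested genes (grey), KDM genes (red) and KMT and SETD genes (blue), with black lines at the median of each of 5 equal bins by span. The black lines step from 0.12 down to -0.12, and most red points lie under them.

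Part of the reads may be shared with neighbours, since 9 members overlap another annotated gene and the strand setting of the counting is not given in the sources used here. Of the members described library by library, these are KDM1B (with TPMT), KDM4A and KDM4C (each with an uncharacterised locus) and KMT2D (with a microRNA gene). KDM6B, KDM5B, KDM4B, KDM3B, KDM3A and KDM2B overlap no annotated gene.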

How the data were processed

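RNA from 8 bESC libraries (4 lines, each on MEF and feeder-free) was sequenced as paired-end reads. The deposited values are raw counts per gene. Per the methods and the submitters' processing notes, the authors trimmed reads with Trimmomatic, aligned them to ARS-UCD2.0 with STAR, dropped optical duplicates (Picard) and poorly mapped reads (Samtools), and ran featureCounts (Subread 1.6.2). They also describe subtracting reads of a pure MEF sample from libraries grown on MEF. Doing so could lower counts in that group, and feeder reads left in could raise them. It is unclear whether the deposited MEF columns are from before or after this step, which bears on every MEF level and fold change, and it was not redone here. The annotation release, strand setting and counting of reads or pairs are not given in the sources used here. The RNA extraction is given differently in the labels (Trizol) and in the methods.

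Of 32640 genes, 3 had no values and 15744 passed edgeR's filterByExpr. Counts were TMM-normalised and tested with edgeR 4.0.16 (quasi-likelihood, R 4.3.3) on the condition alone, with Benjamini-Hochberg adjustment. The methods of the study name edgeR, TMM, these thresholds and no batch correction, but neither the quasi-likelihood test nor the model terms, which were chosen here. Alternatives used the line as a replicate block, DESeq2 1.42.0, limma 3.58.1 (voom), a likelihood ratio test, other scalings and filters, a correction for gene span, and omission of each library or line. The line letters pair the samples because both libraries of a letter come from the same line. Deviations from the group means correlated within each line (r = 0.421 to 0.664 across genes, against -0.523 to 0.249 between lines), so line-adjusted values are printed beside the results whose call they change, for companion genes within the limit per list given below. No 2 libraries of the same group agreed within sampling noise (smallest chi-square per degree of freedom 34.3). Line ratios and log2 values per library use a prior count of 2. The fits were tested on simulated data.

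Each of the 4 lines was considered a biological replicate in the methods of the study. Spans and overlaps came from RefSeq (ARS-UCD2.0), in which 30268 genes and 33 of 34 members matched by symbol. Members called in either fit, filled up to 8 by the smallest line-adjusted P-value among members moving the same way in all lines, were given library by library. The other members were given by fold change within their role group, companion genes where called in either fit (at most 5 per list), the core pluripotency factors, and the 3 members with the smallest line P-values. KDM3A, KDM6A, KMT2D, KMT5A, SETD1B, SETD6, SETD9 and SETDB1 were given library by library after their values were seen, as were the line ratios quoted. The members and lists were chosen with earlier results of these data known.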

Additional observations from a re-analysis of the deposited data

Results flagged for a closer look

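In 6 of 101 groups of 4 values examined (levels per group, log2 ratios over lines and totals), 1 value stood further from the others than Dixon's 95% limit allows, and about 5.05 such groups would be found by chance. The log2 CPM of KDM6A on MEF was 6.19 in line D, against 5.92 to 5.96 in the other lines. SETD1B on MEF was 5.06 in line A, against 5.59 to 5.69. SETD6 on MEF was 3.75 in line C, against 3.55 to 3.57. The log2 ratio of feeder-free to MEF for KDM6A was 0.21 in line A, against -0.29 to -0.20 in the other lines. The same ratio for KMT5C was 0.15 in line E, against -0.28 to -0.21. The total count of the feeder-free library of line D was 102351560, and those of lines A, C and E were 49671478 to 51320214.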

How the results depend on the processing

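The count of downregulated members depended on the test and on the use of the line, and the sign of the members' median did not. The count was 1 in the unpaired fit, 3 with at least 10 counts required in every library, 5 by the likelihood ratio test, 5 by DESeq2, 6 with the replicate block and 6 with the block and span correction. Leaving out 1 library gave 0 to 2. The 2 were KDM4C and KDM6B without feeder-free A, and the omission of any other library gave 0. With the block, choices made after seeing the data gave 12 without the fold change threshold, 5 with RLE size factors, 3 without scaling (KDM4B, KDM4C and KDM6B), 7 with limma-voom and 6 with DESeq2 (KDM7A joined in both, and KDM1B was lost in the latter), and 11, 5, 4 and 4 without line A, C, D or E. Upregulated members were 0 except for 1 with the block and no fold change threshold (KMT5A) and 1 with the block and DESeq2 (SETD9). Members differing between lines were 1, 3 without the filter on low counts and 2 with limma-voom. The median log2 fold change of the members stayed between -0.41 and -0.31.

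All genes called numbered 272 in the unpaired fit, 174 without scaling, 170 without the filter, 412 with at least 10 counts, 837 by the likelihood ratio test, 1212 by DESeq2, 1582 with the block and 1522 with the block and span correction. Leaving out 1 library gave 0 to 490. The 0 arose without MEF D, MEF E, feeder-free C or feeder-free E, where 3190, 3044, 3112 and 2701 genes had an unadjusted edgeR P-value under 0.05. With the block they were 2486 without the fold change threshold, 1586 with RLE, 1608 without scaling, 1790 with limma-voom, 1979 with DESeq2, and 1651, 1057, 742 and 1159 without line A, C, D or E. The block shared 270 of the 272 unpaired calls. The causes were not tested.

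Of the values of single members, 9 changed sign, all of members that were called neither in the unpaired fit nor with the block on all lines. Leaving out 1 library, KDM8 ranged from -0.053 (without MEF D) to 0.41, KMT2B from -0.20 to 0.042 (without MEF D), SETD2 from -0.16 to 0.011 (without MEF D), SETD3 from -0.036 (without MEF E; -0.0033 without feeder-free D) to 0.11 and SETD4 from -1.84 to 0.39 (without MEF E). With the block, KMT2B was 0.037 without line C and 0.035 without line D, and SETD3 was -0.029 without line E. Of the others, set against the unpaired fit on all libraries, 803 kept their side of the threshold, 71 passed it newly and 7 no longer passed it, all 7 of them KDM6B with 1 library left out. Against the block on all lines, KDM1B was lost without any 1 line, KDM4B without line C or D, and KDM5B without line E. At these depths SETD4 and KDM4D, with counts of 0 to 191, are the least certain members.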
